A study of Homo sapiens with 13 samples.

Results

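The genes described here are 47 ribosome biogenesis genes, whose products transcribe, modify and cut ribosomal RNA and put the ribosomal subunits together in the nucleolus. They were chosen by symbol: 48 of the 38369 gene rows of the deposited tables carry one of the 47 symbols, because BOP1 has 2 rows. The second BOP1 row was too low to enter a test in either experiment, so 47 rows, 1 for each gene, were tested in both. By role the list holds 5 genes of ribosomal DNA transcription, 8 of small nucleolar ribonucleoproteins (snoRNPs), 17 of 40S subunit processing, 12 of 60S subunit assembly and 5 nucleolar proteins with several functions.

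PolyA-selected RNA of MCF10A, an immortalised human breast epithelial line that does not form tumours, was sequenced in 2 experiments. The Src time course used MCF10A-Src, an MCF10A derivative whose added Src kinase becomes active when tamoxifen is given. It has a single library each before tamoxifen (0 h) and after 12 h, and 2 libraries each after 4 h and 36 h. The over-expression experiment used parental MCF10A cells collected 72 h after mock transduction (untransduced, 3 libraries) or after transduction with LINC00520, a long intergenic RNA (2 libraries). The study asked when LINC00520 is induced as Src transforms the cells and what raising it alone changes. All cells were grown in serum, hydrocortisone, cholera toxin, epidermal growth factor and insulin. Among the libraries used, none without tamoxifen was matched in time to the 4, 12 and 36 h libraries, so the effects of Src, tamoxifen and time in culture cannot be told apart. Libraries transduced with a control lincRNA were not analysed here, so the effects of LINC00520 and of transduction itself cannot be told apart either.

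As background, RNA polymerase I copies the ribosomal DNA repeats into 1 long precursor, which snoRNPs modify while it is still being made. The small subunit processome and later factors then cut and fold the 18S part into the 40S subunit. Other factors fold the 28S and 5.8S parts into the 60S subunit, together with 5S RNA, which RNA polymerase III makes separately. Many genes of these factors are known targets of MYC and are usually highly expressed in growing epithelial cells.

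The row of LINC00520 stood at 0.0882 to 0.200 counts per 1000000 (CPM) in untransduced cells, at 46.2 and 46.0 CPM in transduced cells, and 0.934 to 1.59 CPM in the 0 and 4 h libraries. It was 14.7 CPM after 12 h and 162 and 202 CPM after 36 h. These values follow the labels of the transduced, 12 h and 36 h libraries; with like levels at 0 and 4 h, they do not check those labels. Library depth ran from 12.6 to 52.3 M fragments, lowest in the second 36 h library and highest at 0 h. The 10 markers of MCF10A and basal breast epithelium are called basal epithelial markers below. All 10 had a mean of 1 or more fragments per kilobase and 1000000 fragments (FPKM) in both experiments. Their summed level was at least 4299 FPKM in each library. The labels name the cell type as breast cancer, which is not how MCF10A is usually described. In bulk RNA, fewer cells of a type and less RNA per cell cannot be told apart. The labels do not say whether replicates came from separate cultures, so the spread behind each p-value is that of these libraries and may be technical.

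Per unit of transcript length, the tested genes ran in untransduced cells from RRS1 at 6.12 FPKM, above 34.8% of all rows tested, to NPM1 at 3501 FPKM, above 99.9%. At 0 h of the time course the lowest was BOP1 at 5.26 FPKM and the highest again NPM1, at 1762 FPKM. NCL was next in both, with 601.5 FPKM in untransduced cells and 198 FPKM at 0 h.

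Between 4 h and 36 h of tamoxifen, 30 of the 47 genes fell and none rose by edgeR's quasi-likelihood test at an adjusted p of 0.05. Over all 15572 rows tested in that comparison, 20.5% were lower and 18.8% higher. At an unadjusted p of 0.05, 33 genes were lower and 1 was higher, and DESeq2 called 28 lower and 0 higher. The share of all rows at an unadjusted p of 0.05 was not counted, here or below. Counts at that threshold therefore have no background and cannot be set against the shares at the adjusted p. The log2 change was below 0 for 42 of the 47 genes, against 52.1% of all rows. The median over the genes was -0.63 on the log2 scale, against -0.04 over all rows. For 38 genes both 36 h libraries lay below both 4 h libraries, which held for 37.3% of all rows. The reverse held for 1 gene, against 33.8% of all rows.

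**Figure D1:**
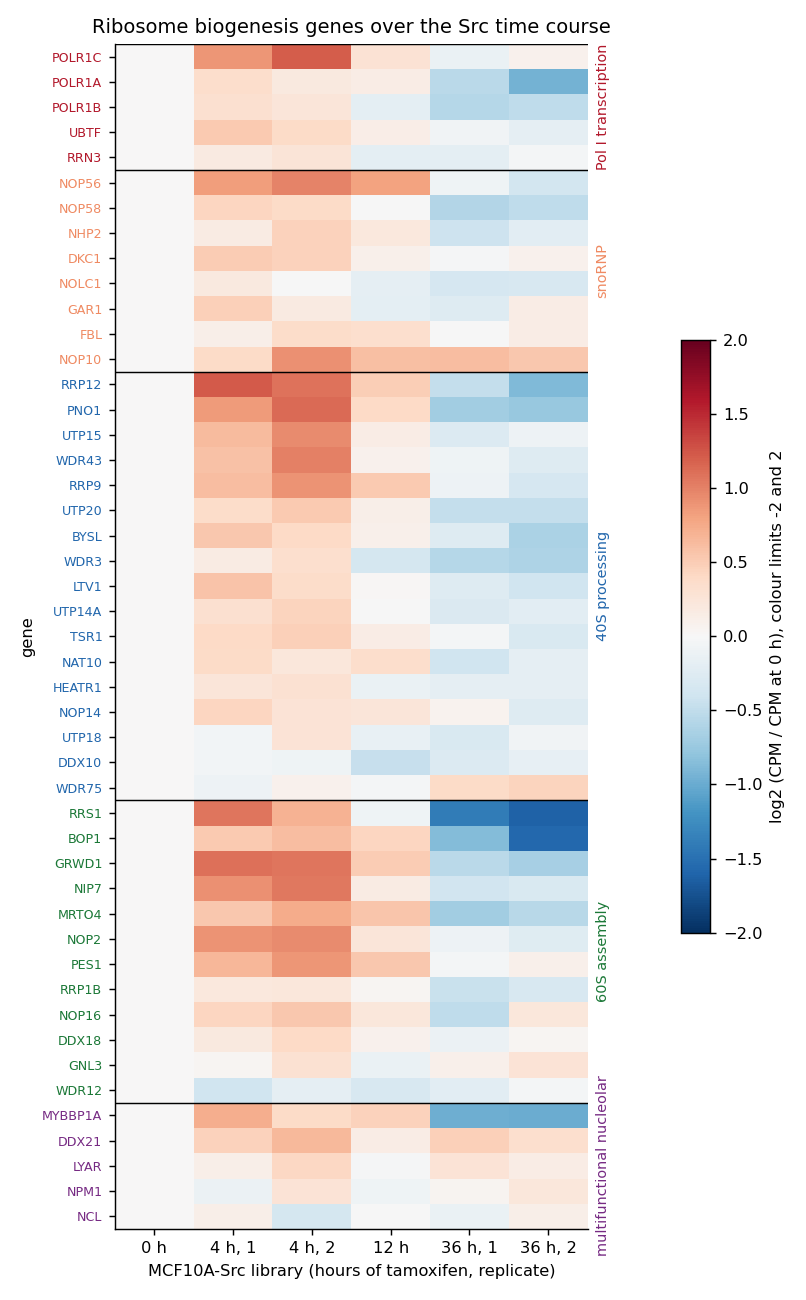
Heat map of the 47 ribosome biogenesis genes (y axis, grouped by role) in the 6 MCF10A-Src libraries (x axis, hours of tamoxifen and replicate); colour is the log2 ratio of CPM to the 0 h library. Most genes are red in both 4 h libraries and pale or blue in both 36 h libraries, while WDR75, NPM1 and NCL do not follow that course.

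The counts by role given next stand against the 20.5% of all rows that were lower at 36 h than at 4 h. The genes of ribosomal DNA transcription fell in 4 of 5 cases between 4 h and 36 h. POLR1A, the largest catalytic subunit of RNA polymerase I (chr2:86253453-86333278, hg19), stood at 128 CPM at 0 h, 163 and 146 CPM at 4 h, 142 CPM at 12 h, and 88.1 and 66.7 CPM at 36 h. Both 36 h libraries were below all others, and the groups at 4 h and 36 h did not overlap (log2 change -0.997 ± 0.18 (SE), adjusted p = 0.00415). POLR1B, the second-largest subunit (chr2:113299492-113346850), stood at 140.2 CPM at 0 h, 174 and 165 CPM at 4 h, 123 CPM at 12 h, and 94.3 and 98.1 CPM at 36 h. It too was lowest in the 2 libraries of 36 h (log2 change -0.82 ± 0.15 (SE), adjusted p = 0.00388). POLR1C, a subunit that RNA polymerases I and III share, stood at 20.1 CPM at 0 h, 37.0 and 46.3 CPM at 4 h, 24.5 CPM at 12 h, and 18.4 and 21.4 CPM at 36 h. Only its 4 h libraries stood out, and the 0 h library lay between the 36 h libraries, with a log2 change of -1.07 ± 0.19 (SE), adjusted p = 0.00415. UBTF, the HMG-box factor that opens ribosomal DNA for transcription, stood at 119 CPM at 0 h, 169.9 and 155 CPM at 4 h, 130.3 CPM at 12 h, and 113 and 105 CPM at 36 h. Its 36 h libraries were the lowest, with a smaller change (log2 change -0.58 ± 0.15 (SE), adjusted p = 0.0182). RRN3, which brings the polymerase to the promoter, changed by -0.34 and did not pass (adjusted p = 0.118). RRN3 has near-identical copies in the genome, and how the authors' counting divided reads among them is not known, so its level is uncertain.

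Of the 8 snoRNP genes, 4 fell. NOP56 and NOP58, the paired core proteins of box C/D snoRNPs, which guide methylation of ribosomal RNA, fell most. NOP56 (chr20:2633254-2639038) stood at 101 CPM at 0 h, 181 and 200.2 CPM at 4 h, 176 CPM at 12 h, and 95.4 and 78.1 CPM at 36 h. It was high at both 4 h and 12 h and low at 0 h and 36 h (log2 change, 36 h over 4 h, -1.13 ± 0.17 (SE), adjusted p = 0.00165). NOP58 (chr2:203130515-203168382) stood at 86.8 CPM at 0 h, 118 and 114 CPM at 4 h, 85.9 CPM at 12 h, and 57.9 and 61.4 CPM at 36 h. The 36 h libraries were the lowest (log2 change -0.96 ± 0.15 (SE), adjusted p = 0.00219). NHP2 (log2 change -0.63) and the pseudouridine synthase DKC1 (log2 change -0.46), both of box H/ACA snoRNPs, also fell. FBL, or fibrillarin, the methyltransferase of box C/D snoRNPs, stood at 108 CPM at 0 h, 117 and 139.7 CPM at 4 h, 136 CPM at 12 h, and 108 and 120.0 CPM at 36 h. Its 4 h and 36 h libraries overlapped, and the log2 change was -0.18 ± 0.16 (SE), adjusted p = 0.419. NOP10, GAR1 and the snoRNP chaperone NOLC1 had log2 changes of -0.09, -0.38 and -0.41 and did not pass.

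The 40S processing genes gave 13 falls among 17. RRP12, a pre-40S export and maturation factor (chr10:99116459-99161127), stood at 50.03 CPM at 0 h, 117 and 106 CPM at 4 h, 70.7 CPM at 12 h, and 35.8 and 27.0 CPM at 36 h. That was 3.54-fold lower at 36 h than at 4 h, with no overlap (log2 change -1.82 ± 0.19 (SE), adjusted p = 0.00034). PNO1, an RNA-binding protein of late 40S maturation (chr2:68385005-68403089), stood at 29.4 CPM at 0 h, 53.2 and 64.8 CPM at 4 h, 38.8 CPM at 12 h, and 18.1 and 17.5 CPM at 36 h. Its 36 h libraries were close together and below every earlier library, 3.31-fold under 4 h (log2 change -1.73 ± 0.18 (SE), adjusted p = 0.000362). UTP15, of the complex that first binds the nascent precursor, stood at 35.9 CPM at 0 h, 55.6 and 69.5 CPM at 4 h, 39.6 CPM at 12 h, and 29.9 and 33.3 CPM at 36 h. It was highest at 4 h, and the 36 h libraries were the lowest (log2 change -0.99 ± 0.18 (SE), adjusted p = 0.00433). UTP20, a scaffold of the small subunit processome (chr12:101673905-101780397), stood at 138 CPM at 0 h, 179 and 199 CPM at 4 h, 150.2 CPM at 12 h, and 99.9 and 99.5 CPM at 36 h. Again 36 h was below all other libraries (log2 change -0.92 ± 0.15 (SE), adjusted p = 0.00254). The other 9 that fell had log2 changes from -0.99 (WDR43) to -0.46 (HEATR1, a processome scaffold). They were WDR43, RRP9, BYSL, WDR3, LTV1, UTP14A, TSR1, NAT10 and HEATR1. LTV1 and UTP14A were counted in rows that also carry C6orf94 and UTP14C. WDR75, a partner of UTP15 in the early complex, was the 1 gene whose 36 h libraries both lay above both 4 h libraries. It stood at 90.2 CPM at 0 h, 84.5 and 95.4 CPM at 4 h, 88.0 CPM at 12 h, and 118 and 123 CPM at 36 h (log2 change 0.42 ± 0.15 (SE), adjusted p = 0.0603).

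Among the 60S assembly genes 8 of 12 fell, and 1 had the largest fall of the list. RRS1, which helps bring the 5S ribonucleoprotein into the pre-60S particle, stood at 8.76 CPM at 0 h, 18.4 and 14.2 CPM at 4 h, 8.27 CPM at 12 h, and 3.33 and 2.85 CPM at 36 h. With 30 or more fragments in every library, it was 5.20-fold lower at 36 h than at 4 h, and its 36 h libraries lay below all others (log2 change -2.38 ± 0.24 (SE), adjusted p = 0.000338). GRWD1, a chaperone for a ribosomal protein, stood at 42.8 CPM at 0 h, 91.9 and 90.1 CPM at 4 h, 61.0 CPM at 12 h, and 29.5 and 27.1 CPM at 36 h in a row shared with KCNJ14. Its 4 h libraries were far above and its 36 h libraries below 0 h (log2 change -1.68 ± 0.16 (SE), adjusted p = 0.000232). PES1, BOP1 and WDR12 form one complex (PeBoW) that acts in 60S processing, and only the first 2 fell. BOP1 stood at 12.1 CPM at 0 h, 17.4 and 18.7 CPM at 4 h, 16.3 CPM at 12 h, and 6.62 and 4.08 CPM at 36 h, lowest in both 36 h libraries (log2 change -1.72 ± 0.26 (SE), adjusted p = 0.00175). PES1 had a log2 change of -0.75 ± 0.16 (SE), adjusted p = 0.00845, and that of WDR12 was 0.16 ± 0.16 (SE), adjusted p = 0.471. The others that fell were NIP7 (log2 change -1.33), the stalk assembly factor MRTO4 (-1.27), the 28S methyltransferase NOP2 (-1.09) and RRP1B (-0.60). GNL3, the nucleolar GTPase nucleostemin, had a log2 change of 0.01, the helicase DDX18 -0.33, and NOP16 -0.60; none passed.

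Of the 5 nucleolar proteins with several functions, only MYBBP1A, a nucleolar Myb-binding protein that also restrains ribosomal RNA synthesis, fell. That share was near the 20.5% of all rows that were lower. The median log2 change of the 5 was -0.06, against -0.04 over all rows. MYBBP1A (chr17:4400689-4458681) stood at 110.4 CPM at 0 h, 183 and 144 CPM at 4 h, 152 CPM at 12 h, and 56.2 and 55.2 CPM at 36 h. Both 36 h libraries were about equal and below all others (log2 change -1.55 ± 0.17 (SE), adjusted p = 0.00048). DDX21, an RNA helicase of Pol I transcription and early processing, stood at 612 CPM at 0 h, 845 and 958 CPM at 4 h, 682 CPM at 12 h, and 851 and 770.4 CPM at 36 h. Its 0 h and 12 h libraries were the lowest, and the first 36 h library lay above the first 4 h library (log2 change -0.15 ± 0.16 (SE), adjusted p = 0.481). NCL, or nucleolin, stood at 533 CPM at 0 h, 576 and 419 CPM at 4 h, 531 CPM at 12 h, and 483 and 579 CPM at 36 h. The 4 h libraries held both the second highest and the lowest value, so the groups overlapped (log2 change 0.09 ± 0.20 (SE), adjusted p = 0.736). NPM1, or nucleophosmin, stood at 2021 CPM at 0 h, 1866 and 2433 CPM at 4 h, 1897 CPM at 12 h, and 2098 and 2367 CPM at 36 h. It too overlapped between 4 h and 36 h (log2 change 0.05 ± 0.19 (SE), adjusted p = 0.847). NPM1 has many processed copies in the genome, so its level is uncertain. LYAR had a log2 change of -0.06 and did not pass.

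**Figure D2:**
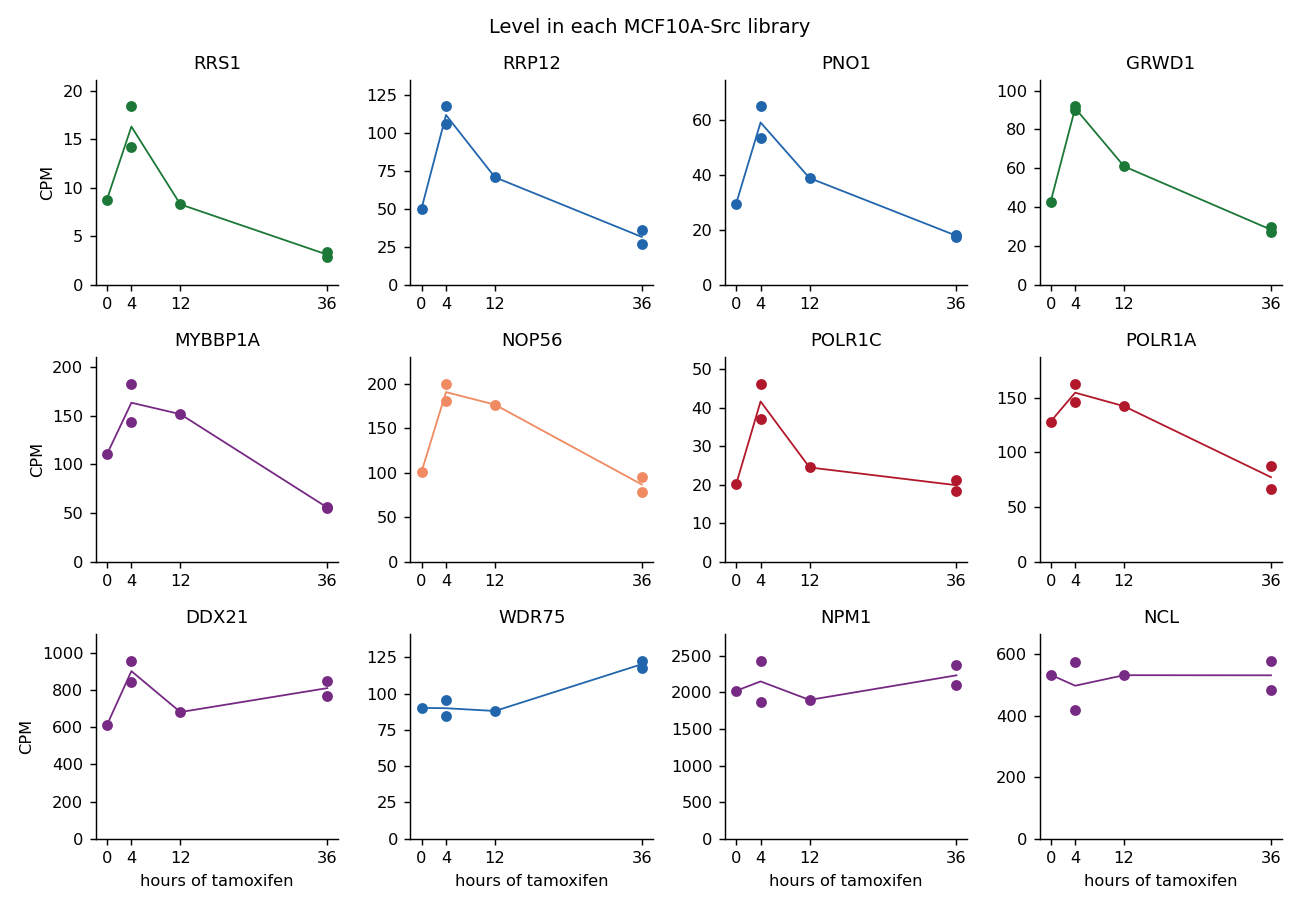
CPM (y axis, linear, from 0, with its own scale in each panel) against hours of tamoxifen (x axis) for 12 of the genes; each point is 1 library and the line joins the means of the libraries at each time. RRS1, RRP12, PNO1 and GRWD1 are highest at 4 h and lowest at 36 h, whereas NPM1 and NCL have overlapping points at 4 h and 36 h.

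With 1 of the 36 h libraries left out, fewer genes passed. Without the first, 21 genes were lower than at 4 h, all 21 among the 30. Without the second, 21 were lower, 20 of them among the 30. The 4 h libraries mattered less: 33 and 31 genes were lower without the first and the second. Scaling by library total alone moved the median of all rows from -0.04 to -0.29 and the median of the 47 genes to -0.88, which is -0.59 relative to all rows. Under that scaling 36 genes were lower and 0 higher, but the share of all rows lower under it was not counted.

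Against 0 h, 7 genes were higher at 4 h and none was lower, where 3.15% and 3.09% of all rows were. With 1 library at 0 h, its spread was taken from the pairs at 4 h and 36 h. The log2 change was above 0 for 43 of the 47 genes (50.5% of all rows), with a median of 0.44 (all rows 0.01). At an unadjusted p of 0.05, 19 genes were higher and 0 lower, with no share of all rows counted at that threshold. RRP12 had the largest rise (log2 change 1.16 ± 0.23 (SE), adjusted p = 0.0295), from the 1 library at 0 h to clearly separate 4 h libraries. GRWD1 (1.09 ± 0.19 (SE), adjusted p = 0.0205) and POLR1C (1.05 ± 0.24 (SE), adjusted p = 0.0435) were next. The other 4 were PNO1 (log2 change 1.005), NIP7 (0.99), NOP2 (0.92) and NOP56 (0.92). NOP2 stood at 61.2 CPM at 0 h, 113 and 118 CPM at 4 h, 72.0 CPM at 12 h, and 57.1 and 51.8 CPM at 36 h. NIP7, a 60S assembly and rRNA processing factor, stood at 35.2 CPM at 0 h, 66.4 and 73.3 CPM at 4 h, 39.6 CPM at 12 h, and 27.0 and 28.7 CPM at 36 h. For both, the 4 h libraries were far above all others. These 7 calls rest on few libraries: limma on log2(FPKM + 1) called none of them, scaling by library total alone called 2, and DESeq2 called all 7 among its 10. Without the first 4 h library 16 genes were higher, and without the second 12.

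At 12 h no gene differed from 0 h by edgeR, where 3.04% of all rows were higher and 1.2% lower. At an unadjusted p of 0.05, 4 genes were higher and 0 lower, and DESeq2 and limma also called 0. The median log2 change was 0.12 (all rows -0.03), and 30 of 47 genes were above 0 (47.6% of all rows). Both groups had 1 library. NOP56 had the largest value, 0.81 ± 0.23 (SE), adjusted p = 0.112. Without the first and the second 4 h library, 2 and 3 genes were higher.

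At 36 h, 5 genes were below 0 h and none was above, where 9.36% and 9.99% of all rows were; the share of the genes that were lower, 10.6%, was near that background. The median log2 change was -0.19 (all rows -0.08). RRS1 (log2 change -1.49 ± 0.28 (SE), adjusted p = 0.00867), BOP1 (-1.15 ± 0.29 (SE), adjusted p = 0.0302) and MYBBP1A (-0.99 ± 0.20 (SE), adjusted p = 0.0128) fell most. POLR1A (-0.73) and PNO1 (-0.72) also fell. No gene was higher at 36 h at an unadjusted p of 0.05, at which 12 were lower and the share of all rows was not counted. This count depended on the analysis: it was 3 with DESeq2, 1 with limma, 20 with library total alone, 12 without the first or the second 4 h library and 2 without the second 36 h library. Under library total alone the median of all rows was itself -0.43 and that of the 47 genes -0.54, so the genes lay 0.11 below all rows, as they did with TMM scaling. The comparisons of 4, 12 and 36 h with 0 h share the 0 h library, and those of 36 h share the 36 h libraries, so their values are given side by side and not as support for each other.

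By mean CPM, 39 of the 47 genes peaked at 4 h, against 26.2% of all rows, and 33 were lowest at 36 h, against 36.4%. The exceptions to the 4 h peak were 3 genes highest at 0 h (24.1% of all rows), 2 at 12 h (18.9%) and 3 at 36 h (30.8%). Summed over the genes without NPM1 and NCL, which alone make up much of the total, the level was 4435 CPM at 0 h, 5815 and 6185 CPM at 4 h, 4756 CPM at 12 h, and 4119 and 4044 CPM at 36 h. The 4 h libraries were the highest and the 36 h libraries the lowest, with no overlap. With NPM1 and NCL included, the sum was 6989 CPM at 0 h, 8256 and 9037 CPM at 4 h, and 7185 CPM at 12 h. At 36 h that full sum was 6700 and 6991 CPM. The 4 h libraries were still the highest, but the second 36 h library lay slightly above 0 h.

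Other genes of the same pathway were taken from lists by role. Of 97 other Pol I, 40S and 60S genes, 45 fell and 6 rose between 4 h and 36 h, with a median of -0.47. Over all rows tested, 20.5% were lower and 18.8% higher. Some of the 97 rows also carry another gene, such as C1S beside EMG1, EIF4A1 beside SENP3 and P2RY11 beside PPAN. Scaled by library total alone, 70 of the 97 fell and 1 rose. That scaling also moved the median of all rows down, as given above, and the share of all rows lower under it was not counted. Without the first and the second 36 h library, 27 and 22 of the 97 fell. CD3EAP, a Pol I subunit, stood at 31.5 CPM at 0 h, 90.7 and 106.6 CPM at 4 h, 43.9 CPM at 12 h, and 28.98 and 29.7 CPM at 36 h (log2 change, 36 h over 4 h, -1.75 ± 0.17 (SE), adjusted p = 0.000248). URB2, of 60S assembly, stood at 87.6 CPM at 0 h, 194 and 178 CPM at 4 h, 99.8 CPM at 12 h, and 43.3 and 38.3 CPM at 36 h, and had a log2 change of -2.18. NOL6, of the small subunit processome, had one of -1.96 and DHX37, a helicase of the same particle, one of -1.64. Both of the first 2 were highest at 4 h, as most of the 47 genes were. Of 17 RNA polymerase III genes, which make 5S and transfer RNA, 9 fell and 2 rose (median -0.56). Of 14 nuclear exosome genes, 3 fell and 1, MPHOSPH6, rose (log2 change 0.83, adjusted p = 0.00725). The share of exosome genes that fell was near the 20.5% of all rows.

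The ribosomal protein genes, whose products are the subunits' own proteins, went the other way: 46 of 80 rose and 1 fell between 4 h and 36 h, with a median of 0.60. Their summed level was 25480 CPM at 0 h, 27143 and 33547 CPM at 4 h, 27301 CPM at 12 h, and 42482 and 47798 CPM at 36 h. The 36 h libraries were the highest. Scaled by library total alone the median was still above 0, at 0.35, with 19 higher. That scaling also moved the median of all rows down, as given above. The lower median is therefore not a smaller rise relative to all rows. The count also depended on the test and on 1 library: limma called 5 higher on log2(FPKM + 1) and 3 on log2(FPKM + 0.1), with a median of 0.59 on both, and edgeR called 16 without the second 36 h library.

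**Figure D3:**
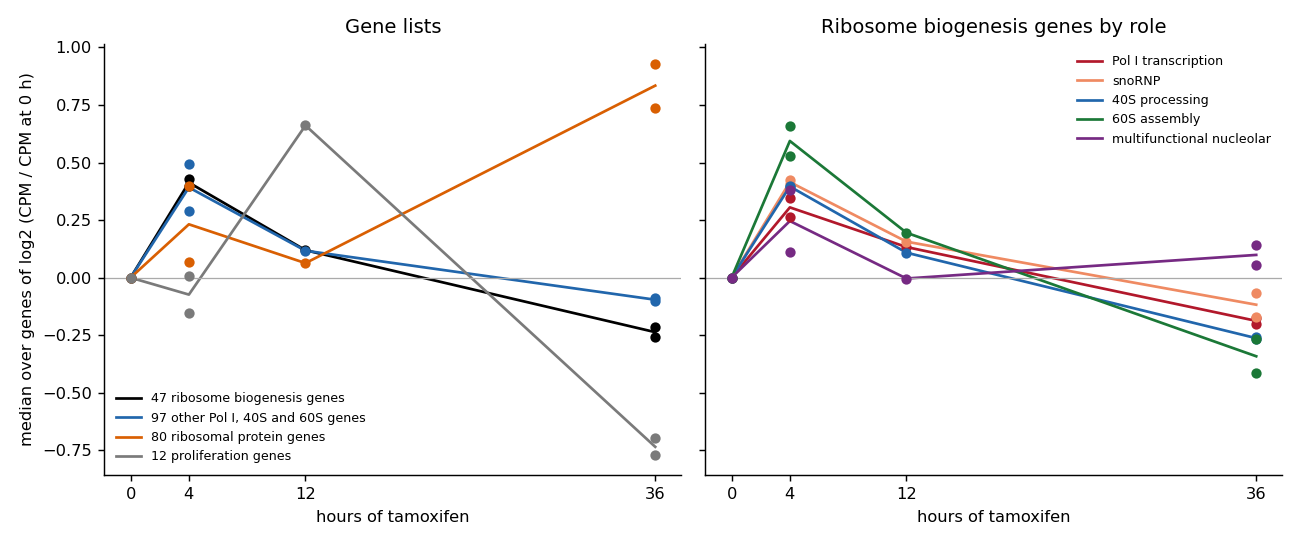
Median over genes of the log2 ratio of CPM to the 0 h library (y axis) against hours of tamoxifen (x axis), for 4 gene lists (left) and for the ribosome biogenesis genes by role (right); points are libraries and lines join the means at each time. The 47 genes lie at 0.43 and 0.40 at 4 h and at -0.26 and -0.21 at 36 h, while the ribosomal protein genes lie at 0.74 and 0.93 at 36 h.

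Other measures moved between 4 h and 36 h as well. Of 12 proliferation genes (such as MKI67 and the MCM helicase), 7 fell and 0 rose, with a median of -0.69. Against 0 h their median was -0.15 and 0.01 in the 4 h libraries, 0.66 at 12 h, and -0.70 and -0.77 at 36 h. The median of the 47 genes was 0.43 and 0.40 at 4 h, 0.12 at 12 h, and -0.26 and -0.21 at 36 h. The basal epithelial markers summed to 7281 and 7311 FPKM at 4 h and to 4661 and 5072 FPKM at 36 h. Gene by gene, 5 of the 10 were lower and 2 higher. Luminal epithelial markers summed to 1412 and 2084 FPKM at 4 h and to 1493 and 1522 FPKM at 36 h, so the groups overlapped. Fibroblast markers summed to 41.4 and 46.9 FPKM at 4 h and to 87.2 and 102.6 FPKM at 36 h, with 2 of 7 at a mean of 1 FPKM or more and COL1A2 at 0. Immune and blood markers summed to 7.34 and 8.32 FPKM at 4 h and to 12.9 and 15.7 FPKM at 36 h, with HBB at 0. Such sums follow the most abundant genes. Of 2 fibroblast markers tested 1 was higher and 0 lower, and the 1 immune and blood marker tested was higher. Of 5 luminal markers tested 0 were higher and 1 lower. The part of these changes in the fall of the 47 genes was not tested.

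In parental MCF10A cells, 37 of the 47 genes were higher in the LINC00520 libraries than in the untransduced ones and none was lower, by the same test. Over all 12790 rows tested there, 25.2% were higher and 24.8% lower. At an unadjusted p of 0.05, 37 were higher and 0 lower, and DESeq2 and limma each called 34 higher and 0 lower. The log2 change was above 0 for 45 of the 47 genes (50.2% of all rows). The changes were small: the median was 0.21 (all rows 0.00) and the largest was 0.49. The common coefficient of variation was 0.0249, against 0.162 in the time course. For 41 genes both LINC00520 libraries lay above all 3 untransduced libraries (33.2% of all rows), and for 1 gene, NPM1, both lay below (33.3%).

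**Figure D4:**
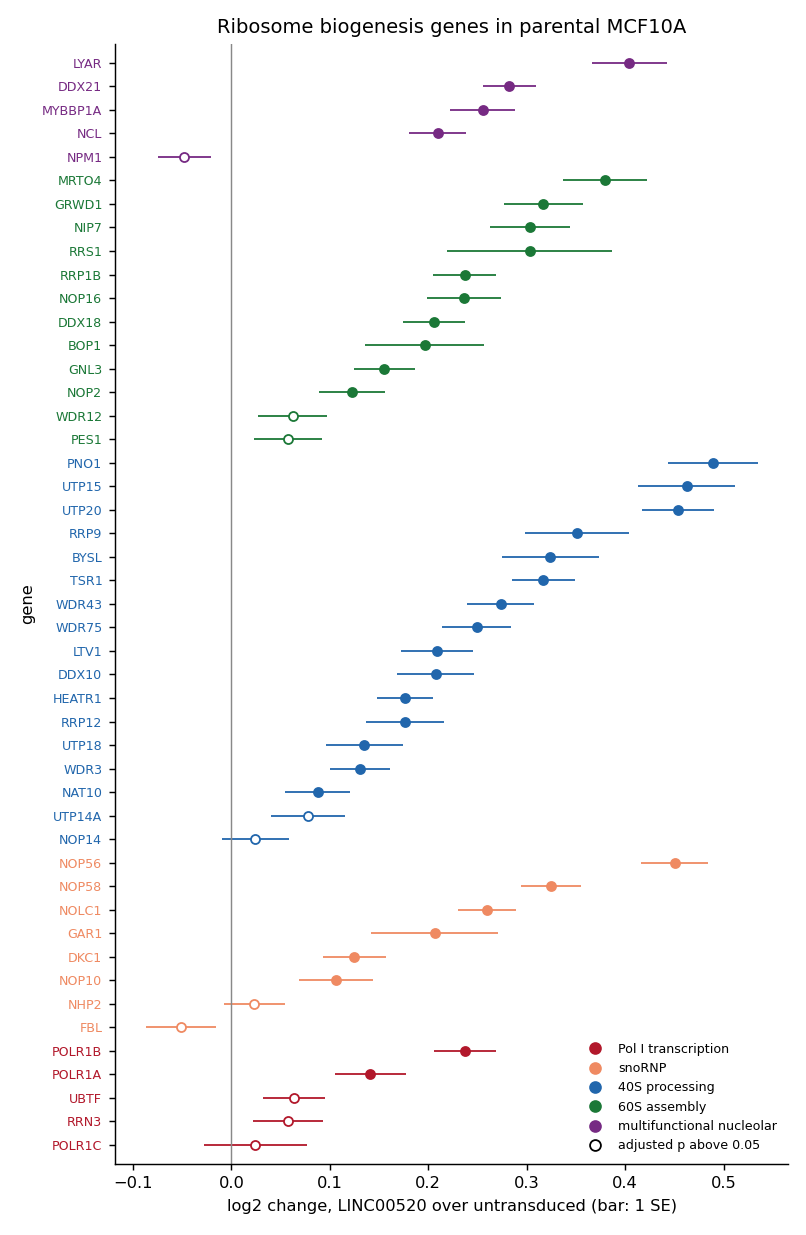
Log2 change of the 47 genes (y axis, by role) between 2 LINC00520 and 3 untransduced libraries (x axis); bars are 1 SE and open points did not pass an adjusted p of 0.05. All but FBL and NPM1 lie above 0, and none lies above 0.49.

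With LINC00520 the counts by role stand against the 25.2% of all rows that were higher. By role, 2 of 5 genes of ribosomal DNA transcription, 6 of 8 snoRNP, 15 of 17 40S processing, 10 of 12 60S assembly and 4 of 5 further nucleolar genes rose. Among the first, POLR1B stood at 124, 121 and 123 CPM in the untransduced libraries and 143 and 146 CPM in the LINC00520 libraries. The groups did not overlap (log2 change 0.24 ± 0.03 (SE), adjusted p = 1.20e-06). POLR1A, at 92.3, 96.4 and 91.2 CPM in the untransduced libraries and 102 and 104 CPM in the LINC00520 libraries, rose less, also without overlap (log2 change 0.14 ± 0.04 (SE), adjusted p = 0.002). UBTF stood at 129.7, 127 and 129 CPM in the untransduced libraries and 133 and 136 CPM in the LINC00520 libraries. The LINC00520 libraries were slightly above the others, but the test did not pass (log2 change 0.06 ± 0.03 (SE), adjusted p = 0.104). POLR1C had a log2 change of 0.02 and RRN3 one of 0.06, neither of which passed.

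Among the snoRNP genes NOP56 stood at 187, 172 and 172 CPM in the untransduced libraries and 239 and 246 CPM in the LINC00520 libraries. Its LINC00520 libraries were 1.37-fold higher, with no overlap (log2 change 0.45 ± 0.03 (SE), adjusted p = 1.18e-10). NOP58, its partner, stood at 164, 160.2 and 163 CPM in the untransduced libraries and 208 and 199.6 CPM in the LINC00520 libraries, likewise apart (log2 change 0.32 ± 0.03 (SE), adjusted p = 4.61e-09). FBL, which binds both in the same particle, stood at 233, 218 and 210.2 CPM in the untransduced libraries and 208 and 217 CPM in the LINC00520 libraries. It overlapped between the groups (log2 change -0.05 ± 0.04 (SE), adjusted p = 0.247). NHP2 had a log2 change of 0.02 and did not pass, while the other 3 H/ACA core genes did: GAR1 (0.21), DKC1 (0.12) and NOP10 (0.11).

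The 3 largest rises were all in 40S processing. PNO1 stood at 41.8, 42.7 and 40.3 CPM in the untransduced libraries and 58.0 and 59.0 CPM in the LINC00520 libraries. That was 1.404-fold higher (log2 change 0.49 ± 0.05 (SE), adjusted p = 3.71e-09). UTP15 stood at 34.2, 33.9 and 34.1 CPM in the untransduced libraries and 48.0 and 45.8 CPM in the LINC00520 libraries (log2 change 0.46 ± 0.05 (SE), adjusted p = 3.39e-08). UTP20 stood at 80.3, 84.8 and 78.8 CPM in the untransduced libraries and 112 and 111 CPM in the LINC00520 libraries (log2 change 0.45 ± 0.04 (SE), adjusted p = 2.93e-10). In all 3 the untransduced libraries lay close together and well below both LINC00520 libraries. RRP12, with a large fall at 36 h, stood at 64.8, 63.6 and 63.4 CPM in the untransduced libraries and 70.5 and 74.1 CPM in the LINC00520 libraries, a smaller difference without overlap (log2 change 0.18 ± 0.04 (SE), adjusted p = 0.000684). Only NOP14 (0.02) and UTP14A (0.08) of this role did not pass.

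Of the 60S assembly genes MRTO4 rose most (log2 change 0.38 ± 0.04 (SE), adjusted p = 7.20e-08). GRWD1 stood at 62.1, 59.4 and 58.6 CPM in the untransduced libraries and 75.1 and 74.7 CPM in the LINC00520 libraries (log2 change 0.32 ± 0.04 (SE), adjusted p = 5.04e-07). RRS1, the least abundant, stood at 10.7, 10.2 and 9.08 CPM in the untransduced libraries and 12.2 and 12.7 CPM in the LINC00520 libraries, also without overlap but with a wider error (log2 change 0.30 ± 0.08 (SE), adjusted p = 0.00421). BOP1 stood at 23.5, 22.04 and 21.3 CPM in the untransduced libraries and 24.7 and 26.6 CPM in the LINC00520 libraries (log2 change 0.20 ± 0.06 (SE), adjusted p = 0.00898). Its partners in the PeBoW complex, PES1 (0.06) and WDR12 (0.06), did not pass. In the last role DDX21 stood at 527, 519 and 527 CPM in the untransduced libraries and 638 and 637 CPM in the LINC00520 libraries, and its 2 groups were far apart (log2 change 0.28 ± 0.03 (SE), adjusted p = 5.44e-09). NCL stood at 1689, 1580.3 and 1609 CPM in the untransduced libraries and 1876 and 1885 CPM in the LINC00520 libraries, again apart (log2 change 0.21 ± 0.03 (SE), adjusted p = 2.27e-06). MYBBP1A stood at 146, 138 and 141 CPM in the untransduced libraries and 166 and 172 CPM in the LINC00520 libraries (log2 change 0.26 ± 0.03 (SE), adjusted p = 7.08e-07), and LYAR had a log2 change of 0.40. NPM1, by far the most abundant, stood at 4363, 4289 and 4274 CPM in the untransduced libraries and 4217 and 4120.5 CPM in the LINC00520 libraries. Its LINC00520 libraries were the lower ones, but the change did not pass (log2 change -0.05 ± 0.03 (SE), adjusted p = 0.149).

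The other genes of the pathway were counted in the same way. Of the 97 other Pol I, 40S and 60S genes, 69 rose and 5 fell (median 0.17). NOL6 rose by 0.50 and URB2 by 0.46 on the log2 scale. Of 19 RNA polymerase III genes 5 rose and 1 fell, and of 14 nuclear exosome genes 8 rose and 1 fell. Over all rows tested, 25.2% were higher and 24.8% lower, so the rises of the RNA polymerase III genes were near that share. All 12 proliferation genes rose, with a median of 0.65. The 10 basal epithelial markers summed to 4399 to 4545 FPKM in untransduced cells and to 5123 and 5212 FPKM with LINC00520. Luminal epithelial markers, 4 of 7 at a mean of 1 FPKM or more and PGR at 0, summed to 523 to 527 FPKM in untransduced cells and to 380.4 and 392 FPKM with LINC00520. Immune and blood markers, 1 of 7 at that mean, summed to 6.65 to 8.01 FPKM and to 5.94 and 5.99 FPKM. The groups did not overlap for any of these 3 lists, while fibroblast markers, 3 of 7 at that mean and LUM at 0, overlapped at 41.6 to 42.8 FPKM. A sum follows its most abundant genes. Gene by gene, 4 of the 10 basal markers were higher and 3 lower, with a median log2 change of 0.01. Of 2 immune and blood markers tested 1 was higher and 1 lower, and of 4 luminal markers tested 0 were higher and 2 lower. The part of the proliferation genes and of these markers in the rise of the 47 genes was not tested. Ribosomal protein genes again went the other way, with 80 of 82 lower, 0 higher and a median of -0.18.

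The 2 experiments share no library, so their changes can be set against each other. Of the 47 genes, 25 (53.2%) were higher with LINC00520 and lower at 36 h than at 4 h, against 8.19% of 12352 rows tested in both. With 37 of the 47 higher in 1 experiment and 30 lower in the other, most of this overlap follows from those counts. No gene was called the same way in both, against 3.65% of all rows higher in both and 4.91% lower in both. That was fixed in advance, as none was lower with LINC00520 and none higher at 36 h. Across the 47 genes the log2 changes had a Pearson r of -0.40 and a Spearman rho of -0.39 (all rows -0.11 and -0.16). This is a description across genes that share libraries, and genes are not replicates. PNO1 is the clearest case, with the largest rise with LINC00520 and the third-largest fall at 36 h. LINC00520 itself was high in both the transduced and the 36 h libraries. Of the 80 ribosomal protein genes tested in both, 46 (57.5%) were lower with LINC00520 and higher at 36 h, against 6.25% of all rows. As nearly all of them were lower with LINC00520, this count follows from the number that rose at 36 h.

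**Figure D5:**
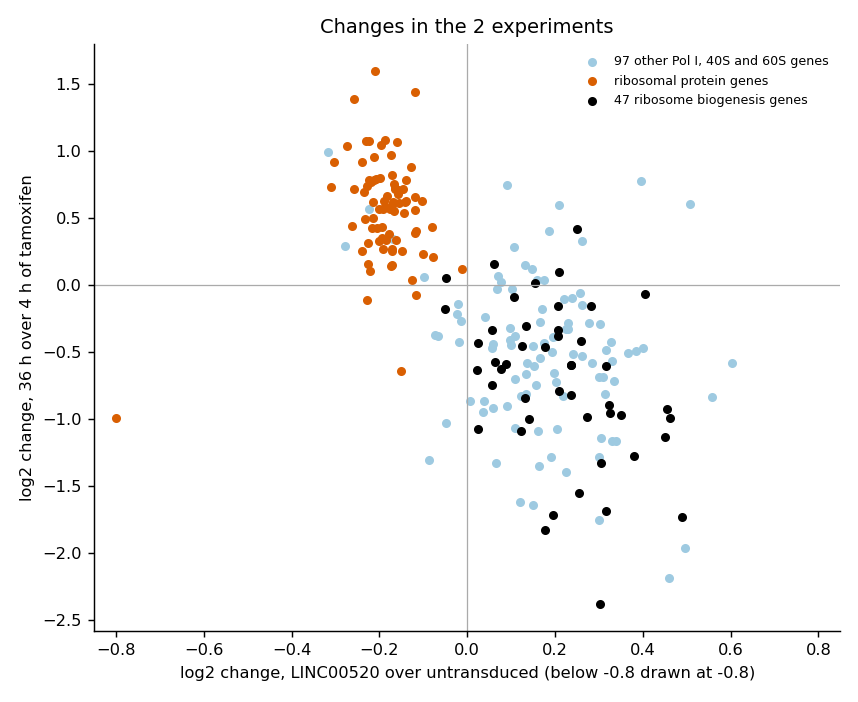
Log2 change between 36 h and 4 h of tamoxifen (y axis) against log2 change between LINC00520 and untransduced libraries (x axis); each point is a gene of 1 of 3 lists, and 1 ribosomal protein gene below -0.8 is drawn at -0.8. Most of the 47 ribosome biogenesis genes lie at the lower right and most ribosomal protein genes at the upper left.

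Promoter sequences were examined for the E-box CACGTG, the motif that MYC and related factors bind, which reads the same on both strands. RefSeq promoters (GRCh38.p14, 250 bases before to 50 after the start) were matched for 40 of the 47 genes. DDX18, RRS1, NOLC1, NOP58, BOP1, RRP1B and RRP12 had no entry. The motif was in the window of 20 of the 40 (50%), against 8.77% of 27305 genes in the whole table, 12.7% of 8413 protein-coding genes tested in the time course, and 4 of 64 ribosomal protein genes (6.25%). Of the 22 motifs in the 20 genes, 18 (81.8%) began between 50 bases before and 50 after the start, against 37.8% of the 2692 in the whole table. Windows of 30 bases or less around the motif, in capitals, are shown first for 5 genes that rose with LINC00520 and fell at 36 h, and then for 3 that did not fall.
PNO1 (chr2:68157885-68157914, plus strand): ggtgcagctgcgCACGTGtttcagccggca
UTP20 (chr12:101280083-101280112, plus strand): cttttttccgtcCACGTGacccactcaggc
MYBBP1A (chr17:4555340-4555369, minus strand): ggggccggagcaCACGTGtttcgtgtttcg
MRTO4 (chr1:19251807-19251836, plus strand): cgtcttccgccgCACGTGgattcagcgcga
NOP2 (chr12:6568242-6568268, minus strand): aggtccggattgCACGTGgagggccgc
FBL (chr19:39846356-39846385, minus strand): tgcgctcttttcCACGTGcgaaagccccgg
GNL3 (chr3:52686026-52686055, plus strand): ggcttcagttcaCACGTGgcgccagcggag
LYAR (chr4:4290068-4290097, minus strand): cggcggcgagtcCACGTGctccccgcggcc
In UTP20 the motif ends 5 bases before the start, and in LYAR 59 bases before it; in PNO1 it begins at transcribed base 10, in FBL and GNL3 at base 7, in MRTO4 at base 15, in MYBBP1A at base 28 and in NOP2 at base 36. The longer context is shown for UTP20, one of the 3 largest rises, as the 250 bases before its start.
UTP20 upstream (chr12:101279855-101280104, plus strand): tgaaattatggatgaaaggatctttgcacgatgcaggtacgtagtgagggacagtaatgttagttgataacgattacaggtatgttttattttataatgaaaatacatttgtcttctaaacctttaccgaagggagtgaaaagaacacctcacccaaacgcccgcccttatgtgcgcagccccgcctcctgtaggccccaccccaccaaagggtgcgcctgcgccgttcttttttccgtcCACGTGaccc
Over all rows tested, 20.5% were lower at 36 h than at 4 h and 25.2% higher with LINC00520. Against 0 h, 3.15% of all rows were higher at 4 h and 9.36% lower at 36 h. Genes with and without the motif are given side by side, with no test of their difference. Between 4 h and 36 h, 12 of the 20 genes with it fell (median -0.69) and 13 of the 20 without it (median -0.60). With LINC00520, 16 of the 20 with it rose (median 0.21) and 14 of the 20 without it (median 0.19). At 4 h against 0 h, 2 of the 20 with it were higher (median 0.47) and 4 of the 20 without it (median 0.30). At 12 h against 0 h none of either passed (medians 0.20 and 0.12), and at 36 h against 0 h 2 and 1 were lower (medians -0.18 and -0.17). GRWD1 and POLR1A, which also fell at 36 h and rose with LINC00520, have no such motif in these windows, which says nothing about binding outside them. A match is a description of the letters and not of a bound site.

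Many snoRNAs are released from introns of other genes, and some of the 47 genes are such hosts. By the GENCODE 29 annotation, 7 of the 47 (14.9%) hold a snoRNA on their strand, against 1.71% of 10510 protein-coding genes tested in the time course. NOP56 holds SNORD56, SNORD57, SNORD86, SNORD110 and SNORA51, and NOP58 holds, among others, SNORD11, SNORD11B and SNORD70. DKC1 holds SNORA36A and SNORA56, NCL holds SNORD20, SNORD82 and SNORA75, and WDR43, TSR1 and GNL3 are the other hosts. All 7 rose with LINC00520 and 5 fell between 4 h and 36 h, where 30 and 25 of the other 40 did. Over all rows tested, 25.2% were higher with LINC00520 and 20.5% lower at 36 h than at 4 h. PolyA-selected libraries measure the host transcript and not the snoRNA.

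The authors' deposited table of Cuffdiff calls was also read for these genes. In the authors' deposited table, 12 of the 47 were higher and 0 lower with LINC00520, where 6.61% and 6.26% of the rows it tests were. Between 4 h and 36 h the authors' deposited table called 25 lower and 0 higher (14.8% and 13.3% of rows). Against 0 h the authors' deposited table called 12 higher at 4 h (5.45% of rows), 1 higher at 12 h (4.36%) and 3 lower at 36 h (6.94%). As shares of the 47, the counts at 12 h and 36 h in the authors' deposited table were not above those of all rows.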

How the data were processed

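The submitters' processing notes name CASAVA 1.4 (base calling), TopHat (alignment), Cuffdiff (quantification) and the hg19 genome; other versions, the annotation and the strand setting are not given in the sources used here. Per the file headers, the authors' quantification tables give every gene an estimated count of fragments in each library, and the authors' FPKM beside it. The authors' deposited comparison tables give a log2 fold change with a p-value and q-value for 2 conditions at a time. Some deposited log2 values of the time course exceed what a log2 change can be, so that column was treated as a score of which only the sign was kept.

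Of 13 samples, 11 were matched by name. The 2 control lincRNA samples were not analysed here, and 7 libraries in the tables that match no label were not used. The 47 genes and all lists were chosen with earlier results of these data known.

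Estimated counts were rounded (98.8% to 99.9% of values were whole within 0.01) and tested with edgeR 4.0.16 (TMM scaling, quasi-likelihood test, 1 coefficient per group) on rows with status OK and FPKM not under 1 in at least 2 over-expression libraries or at least 1 time-course library. P-values are 2-sided and adjusted by Benjamini-Hochberg over all rows tested, with a threshold of 0.05. SE is the size of the log2 change over the square root of its F statistic, and CPM is after TMM scaling. The fit has 3 residual degrees of freedom in the over-expression experiment and 2 in the time course. The script was tested on simulated data. Alternatives were scaling by library total or DESeq2 size factors, no filter or an FPKM of 5, DESeq2 1.42.0, limma 3.58.1 on log2(FPKM + 1) and log2(FPKM + 0.1), leaving out each library, and a replicate block. Other software was R 4.3.3, Python 3.11.15 with pandas 2.3.3, and matplotlib 3.10.9.

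Values in every library are given for the 2 genes of each role with the smallest p between 36 h and 4 h, the 3 largest called rises and falls of each comparison, and NCL, NPM1, FBL, POLR1A and UBTF; WDR75, NOP2 and NIP7 were added after their values were seen. Up to 3 genes with the smallest p could be named from each list of other pathway genes. The printed sequences were chosen after the changes were seen. Coordinates of genes are 1-based hg19 positions from the files, where a row can span more than its named gene; sequences and their coordinates are RefSeq GRCh38.p14. Same-numbered libraries did not deviate together (correlations -0.028, -0.041 and 0.078) and were not treated as pairs.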

Additional observations from a re-analysis of the deposited data

How the results depend on the processing

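The median log2 change of the 47 genes kept its sign in each of the 5 comparisons under every alternative run, and no called gene with values in every library changed direction. Scaled by library total alone, the median was -0.88 for 36 h over 4 h, 0.34 for 4 h over 0 h and -0.54 for 36 h over 0 h, with medians over all rows of -0.29, -0.09 and -0.43. Leaving out 1 library moved the median for 36 h over 4 h between -0.73 and -0.59.

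Counts of called genes moved as follows. For 4 h over 0 h, 2 genes were higher by library total alone, 0 with limma on either pseudocount, 12 with no filter, and 6 to 16 with 1 library left out. For 36 h below 0 h, 20 were lower by library total, 12 with an FPKM minimum of 5, 3 with DESeq2 size factors, 3 with the DESeq2 test, 1 with limma on either pseudocount, and 2 to 12 with 1 library left out. For 36 h above 0 h it was 0 to 2 with 1 library left out. For 12 h over 0 h, 1 was higher with no filter and 0 to 3 with 1 library left out. For 36 h above 4 h, 1 was higher with DESeq2 size factors, 1 with an FPKM minimum of 5 and 0 to 1 with 1 library left out. With LINC00520, 1 was lower with an FPKM minimum of 5. Where leaving out a library left a time point with 1, that library was assumed to vary like the others, and the spread came from the remaining pair. The cause of these moves was not tested. Of 242 single-gene values, 229 kept their side of the threshold and 13 no longer passed. These values belong to named genes, most of them picked for a small p or a large change. That choice made it likely in advance that they would keep their side. Over all called genes fewer calls were kept under some alternatives, as the counts above show.

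With the replicate number as a block, 1 gene was higher and 29 were lower at 36 h than at 4 h, and 34 were higher and 0 lower with LINC00520; the numbers do not pair the libraries. Depth limits the least abundant genes most: RRS1 had 30 fragments in its lowest library and BOP1 43.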
